A study of Mus musculus with 11 samples.

Results

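The Myc, Max and Mxd network was followed in 2 epidermal cell populations of mice with and without Langerhans cells (LCs). Its 10 members were chosen by name, Myc, Mycn, Mycl, Max, Mxd1, Mxd3, Mxd4, Mxi1, Mnt and Mlx, out of 52550 genes in the table. All 10 were found and all 10 were among the 14419 genes tested. They were chosen with earlier results of these data in view, above all the higher Mxd1 values without LCs. The genotype differences of the members are therefore a description. It is stated which members passed the test over all genes, but no p-value of a member is given for them and nothing is read from them. The differences between the populations did not enter the choice and were tested.

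RNA-seq had been made from flank skin epidermis of female, 8-week-old huLangerin-DTA mice and their wild-type (WT) littermates. In huLangerin-DTA mice, written LC-/- here and DTA in the labels, the human langerin promoter drives the A subunit of diphtheria toxin, so LCs are missing from birth. Keratinocytes (KCs), the epithelial cells of the epidermis, had been sorted as live cells negative for MHC-II, CD45, langerin and c-kit, and dendritic epidermal T cells (DETCs), the resident γδ T cells, as CD45+ cells with the same other gates. There were 3 WT and 3 LC-/- KC libraries and 3 WT and 2 LC-/- DETC libraries. They are named W1 to W3 and L1 to L3 by the numbers in their titles, and DETC libraries exist for W1, W2, W3, L2 and L3. The study describes each library as a separate animal, and whether KCs and DETCs that share a number were sorted from 1 animal is not stated.

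Myc, Mycn and Mycl are basic helix-loop-helix leucine zipper transcription factors that pair with Max, bind the E-box CACGTG and activate genes of growth, above all those of ribosome production. Mxd1, Mxd3, Mxd4, Mxi1 and Mnt compete for Max and for the same E-box, and their dimers recruit the Sin3 and HDAC corepressor. Mlx also pairs with Mxd1, Mxd4 and Mnt, and with the glucose-responsive factors Mlxip and Mlxipl. In skin, Myc acts in stem and dividing basal cells, and Mxd1 is known as a gene of differentiating suprabasal cells. In T cells, Myc drives the growth that follows activation.

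On GRCm38, Mxd1 (ENSMUSG00000001156.9) lies on the minus strand at chr6:86647042-86669161, Myc (ENSMUSG00000022346.15) on the plus strand at chr15:61985391-61990374 and Max (ENSMUSG00000059436.13) on the minus strand at chr12:76937269-76962201. The E-box itself was looked for in the RefSeq promoter windows of GRCm38.p6, which run from 250 bases before to 50 after each annotated start. The letters CACGTG read the same on both strands. RefSeq windows matched 9 of the 10 members, with no entry for Myc. The E-box stood in 4 of these 9 members, Mxd4, Mnt, Mlx and Max, and in 7.15% of all 32851 windows, or in 11.6% of the 10291 tested genes with a window. The windows of Mxd1, Mxd3, Mxi1, Mycn and Mycl did not hold these letters. The 4 windows with the E-box are shown because they are the members whose own start carries the letters that the network's dimers recognize, and Mxd1 because its rise in both populations was known when the members were chosen. Nop2, a ribosome biogenesis gene described with the targets of the network, is shown as a target with an E-box. Each sequence is 5′ to 3′ on the strand of the gene and ends 20 bases after the start, with the E-box in capitals.
Mxd1: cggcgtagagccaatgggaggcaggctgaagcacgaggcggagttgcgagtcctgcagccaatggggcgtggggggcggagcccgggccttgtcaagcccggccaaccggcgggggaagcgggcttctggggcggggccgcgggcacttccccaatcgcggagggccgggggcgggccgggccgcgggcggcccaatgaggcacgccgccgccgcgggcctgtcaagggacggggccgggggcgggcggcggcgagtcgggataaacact
Max: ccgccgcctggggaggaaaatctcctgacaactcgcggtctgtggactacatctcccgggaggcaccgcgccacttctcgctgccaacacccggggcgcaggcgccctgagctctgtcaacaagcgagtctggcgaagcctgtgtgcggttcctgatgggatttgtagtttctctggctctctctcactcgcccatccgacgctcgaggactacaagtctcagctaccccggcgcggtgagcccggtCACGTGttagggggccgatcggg
Mnt: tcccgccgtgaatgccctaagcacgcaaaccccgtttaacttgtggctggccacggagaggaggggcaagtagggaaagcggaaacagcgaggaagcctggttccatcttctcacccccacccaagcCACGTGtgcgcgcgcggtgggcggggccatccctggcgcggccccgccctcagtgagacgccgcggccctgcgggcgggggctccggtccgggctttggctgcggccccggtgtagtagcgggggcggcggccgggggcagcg
Mxd4: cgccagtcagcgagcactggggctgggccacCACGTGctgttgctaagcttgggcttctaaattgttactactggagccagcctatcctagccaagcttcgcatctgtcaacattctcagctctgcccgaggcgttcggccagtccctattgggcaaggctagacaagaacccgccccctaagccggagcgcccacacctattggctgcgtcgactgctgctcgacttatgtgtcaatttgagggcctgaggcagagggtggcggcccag
Mlx: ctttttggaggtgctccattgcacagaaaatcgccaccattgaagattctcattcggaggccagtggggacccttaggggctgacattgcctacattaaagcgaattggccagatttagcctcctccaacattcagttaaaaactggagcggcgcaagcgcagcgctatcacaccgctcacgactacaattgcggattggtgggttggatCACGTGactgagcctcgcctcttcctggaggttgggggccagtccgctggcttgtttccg
Nop2: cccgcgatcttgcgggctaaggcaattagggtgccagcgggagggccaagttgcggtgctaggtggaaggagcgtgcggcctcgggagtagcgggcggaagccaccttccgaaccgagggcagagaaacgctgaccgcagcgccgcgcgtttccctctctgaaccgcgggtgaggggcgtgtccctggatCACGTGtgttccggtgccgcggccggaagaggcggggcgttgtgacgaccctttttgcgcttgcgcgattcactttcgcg

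The E-box began at position -3 relative to the start site in Max, at -40 in Mlx, at -60 in Nop2, at -123 in Mnt and at -219 in Mxd4. The windows lay at chr6:86669140-86669409 (Mxd1, minus strand), chr12:76962229-76962498 (Max, minus), chr11:74830674-74830943 (Mnt, plus), chr5:34187691-34187960 (Mxd4, minus), chr11:101087040-101087309 (Mlx, plus) and chr6:125131633-125131902 (Nop2, plus). A match of letters is a description of the sequence and says nothing about binding in these cells.

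The libraries held 13491075 to 19750440 reads on genes. Values are normalized counts, that is reads divided by a size factor of the library, and 3 reads, the limit that a count of 0 allows by counting error, equal 2.48 to 3.32 normalized counts. Cd207, which encodes langerin, had 0 reads in the 3 LC-/- KC libraries and 6 to 29 in the WT ones, and it had 0 and 4 reads in the LC-/- DETC libraries and 20 to 48 in the WT ones. The summed normalized counts of 20 DETC markers were 290306 to 319097 in DETC libraries and 364 to 673 in KC libraries. Markers of other T cells were present in DETC libraries too. Those of αβ T cells summed to 10468 to 12527 in WT and 7782 to 14992 in LC-/- DETC libraries. Those of dermal γδ T17 cells summed to 9604 to 10974 in WT and 8012 to 9229 in LC-/- ones, without overlap. The part of such cells in the genotype differences was not tested. The 24 keratinocyte markers summed to 779563 to 845831 in KC libraries and still to 136045 to 230861 in DETC libraries. The median marker of a DETC library stood at 16.1% (W1), 16.1% (W2), 18.9% (W3), 27.0% (L2) and 16.8% (L3) of its KC mean in the same genotype. This is called the keratinocyte share. It was applied alike to every gene of a library, although markers of different layers differed. Between WT populations the median log2 difference (DETC minus KC) was -2.63 for 11 basal markers and -1.31 for 17 suprabasal markers. For the 24 markers behind the share it was -2.57. The share may thus be too low for genes of suprabasal cells, and how well it holds for a given gene was not tested. A lower value in such sorted bulk samples can come from fewer cells of a type or from less RNA per cell, which cannot be told apart.

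Mxd1 had 1227, 1208 and 1093 normalized counts in WT KCs (W1, W2, W3) and 1737, 1979 and 1752 in LC-/- KCs (L1, L2, L3). Every LC-/- library was above every WT library, with means of 1176 ± 72.0 (SD, n = 3) and 1823 ± 135 (SD, n = 3) and a log2 fold change of 0.63 ± 0.073 (SE). In WT DETCs Mxd1 had 2597, 3004 and 2450 normalized counts, and in LC-/- DETCs (L2, L3) 5013 and 4408. The groups again did not overlap, with means of 2684 ± 287 (SD, n = 3) and 4711 ± 427 (SD, n = 2) and a log2 fold change of 0.81 ± 0.11 (SE). The genotype differences of KCs and DETCs share no library. Both were known when the members were chosen, so the rise in DETCs is not an independent repeat. Whether the populations share animals is not stated. The keratinocyte share of the KC mean amounted to 6.31% to 9.80% of the Mxd1 value of a DETC library. This may be too low, since Mxd1 is known from suprabasal cells, whose markers stood above the share. After subtraction of the share the log2 fold change in DETCs was 0.80, a value that no longer passed the test. Few genes of any kind passed in that fit. Over all genes it gave 13 as higher and 6 as lower, against 452 and 62 before subtraction.

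**Figure D1:**
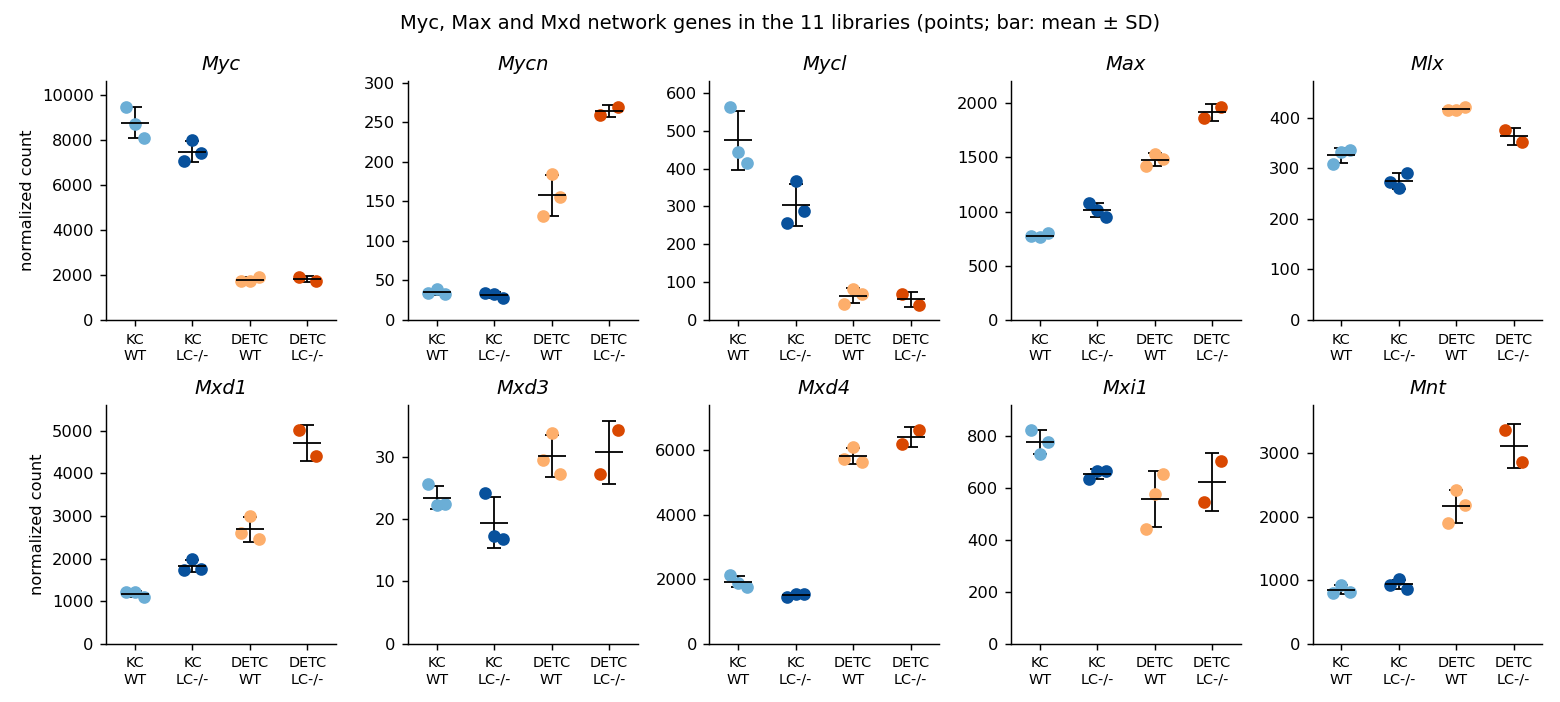
Normalized counts (linear axes from 0) of the 10 network genes in each of the 11 libraries, by population and genotype. Points are libraries, and black bars give the mean ± SD (n = 3, DETC LC-/- n = 2). Mxd1 lies higher in LC-/- than in WT libraries of both populations, and Myc lies between 7045 and 9470 in KCs against 1714 to 1931 in DETCs.

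By limma with Benjamini-Hochberg adjustment over all genes tested, Mxd1 and Max passed an adjusted p of 0.05 between genotypes in KCs, both higher in LC-/-, and no member passed as lower. Over all genes 7.23% passed in this comparison, 5.37% as higher and 1.85% as lower. In DETCs Mxd1 alone passed, also higher, where 3.56% of all genes did, 3.13% as higher and 0.430% as lower. Nothing is read from these counts, since this contrast led to the choice of the members. These calls changed with the libraries used, as did those over all genes. In KCs 775 of all genes passed as higher with all libraries. This count was 552 without L2, 200 without W3 and 5 to 10 without W1, W2, L1 or L3. In DETCs 452 of all genes passed as higher with all libraries, 342 without W1, 63 without W2 and 42 without W3. In KCs Mxd1 passed in 1 of the 6 fits that left out a library, the one without L2, and its log2 fold change stayed between 0.57 and 0.66. In DETCs it passed in 3 of 5 such fits and did not pass without W3 or without L2, with a log2 fold change between 0.72 and 0.91.

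In KCs without overlap between genotypes, 2 members were higher in LC-/- (Mxd1 and Max) and 5 lower (Myc, Mycl, Mxd4, Mxi1 and Mlx), while Mycn, Mxd3 and Mnt overlapped. Over all genes tested 31.5% had no overlap in KCs, 16.6% as higher and 14.9% as lower. In DETCs, 5 members were higher without overlap (Mxd1, Mycn, Max, Mnt and Mxd4), Mlx was lower, and Myc, Mycl, Mxd3 and Mxi1 overlapped. The share over all genes was 37.9%, with 21.3% higher and 16.5% lower. The 17 suprabasal keratinocyte markers, which mark the layer in which Mxd1 is known, summed to 127389 to 185576 normalized counts in WT KCs. In LC-/- KCs they summed to 117395 to 170616. Of the 17 log2 fold changes, 7 lay above 0, with a median of -0.16, against -0.01 over all genes. The test was passed by 1 of the 17, as higher, where 5.37% of all genes passed as higher. The 15 immediate early genes, which respond quickly to stress or stimulation, summed to 394357 to 460421 in WT DETCs and to 483642 to 549994 in LC-/- DETCs, without overlap. In KCs these sums were 515778 to 529048 and 471323 to 560384. Their part in the DETC values was not tested.

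Max, the shared partner of the whole network, had 775, 765 and 799 normalized counts in WT KCs and 1077, 1015 and 955 in LC-/- KCs. The LC-/- libraries were all above the WT libraries, with a log2 fold change of 0.38 ± 0.053 (SE). Max passed the test in KCs with all libraries and in none of the 6 fits that left out a library, in which the log2 fold change was 0.34 to 0.42. In DETCs Max had 1419, 1534 and 1488 in WT and 1863 and 1969 in LC-/- libraries, a log2 fold change of 0.37 ± 0.084 (SE) that did not pass. Max thus had its lowest value in a WT KC library and its highest in an LC-/- DETC library.

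Of the activating partners, Myc had 9470, 8713 and 8077 normalized counts in WT KCs and 7045, 7988 and 7391 in LC-/- KCs. The lowest WT library was just above the highest LC-/- library, and the log2 fold change of -0.23 ± 0.080 (SE) did not pass. In DETCs Myc had 1715, 1714 and 1906 in WT and 1931 and 1730 in LC-/- libraries, which overlapped. Mycl, the Myc paralogue used by dendritic cells, had 564, 443 and 416 in WT KCs and 257, 366 and 289 in LC-/- KCs. Its log2 fold change of -0.64 ± 0.18 (SE) was the lowest of the members and did not pass. Mycn, best known from progenitor cells and neural tumours, was low in KCs, with 27.3 to 39.0 normalized counts in the 6 libraries. In DETCs it had 132, 185 and 156 in WT and 259 and 270 in LC-/- libraries. These did not overlap, and the log2 fold change of 0.76 ± 0.17 (SE) did not pass.

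Of the repressing partners other than Mxd1, Mnt is the one that most dividing cells hold in steady amounts. It had 805, 928 and 821 normalized counts in WT KCs and 931, 1012 and 869 in LC-/- KCs, which overlapped. In DETCs Mnt had 1899, 2414 and 2176 in WT and 3357 and 2864 in LC-/- libraries, a log2 fold change of 0.53 ± 0.12 (SE) without overlap that did not pass. Mxd4, linked to resting and differentiated cells, had 2122, 1890 and 1771 in WT KCs and 1441, 1543 and 1548 in LC-/- KCs. In DETCs it had 5744, 6112 and 5628 in WT and 6192 and 6625 in LC-/- libraries. The LC-/- libraries of Mxd4 were thus all below WT in KCs (log2 fold change -0.35 ± 0.076, SE) and all above in DETCs (0.14 ± 0.089, SE), and neither passed.

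Mxi1 had 821, 731 and 776 normalized counts in WT KCs and 632, 665 and 666 in LC-/- KCs, with a log2 fold change of -0.24 ± 0.054 (SE) that did not pass. In DETCs it ranged from 442 to 653 in WT and had 545 and 702 in LC-/- libraries. Mxd3, a member known from dividing cells, had 16.8 to 34.3 normalized counts over the 11 libraries. It shares 105 exon bases with Prelid1 on the opposite strand, which had 1015 to 2518 reads, and whether reads were counted by strand is not given in the sources used here, so the values of Mxd3 are uncertain. Mlx, the hub of the Mlxip branch, had 309, 332 and 336 in WT KCs and 272, 262 and 291 in LC-/- KCs, and 416, 416 and 422 in WT DETCs and 376 and 352 in LC-/- DETCs. It was lower without overlap in LC-/- libraries of both populations, by log2 fold changes of -0.25 ± 0.065 and -0.20 ± 0.10 (SE), and passed in neither. Mlx shares 385 exon bases with Psmc3ip on the opposite strand, which had 16 to 35 reads.

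A test of the difference between the genotype changes of DETCs and KCs, an interaction term in limma, passed for 0 of the 10 members, where 0.798% of all genes passed. At an unadjusted p under 0.05 there were 3 members (Mxd4, Mycn and Mnt), against 1052 higher and 582 lower of the 14419 genes tested. Of the members, edgeR passed 0 and DESeq2 passed Mxd4. This difference draws on the same genotype values that led to the choice of the members, so nothing is read from these counts. For Mxd1 the change in DETCs exceeded that in KCs by 0.18 ± 0.14 (SE) on the log2 scale.

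**Figure D2:**
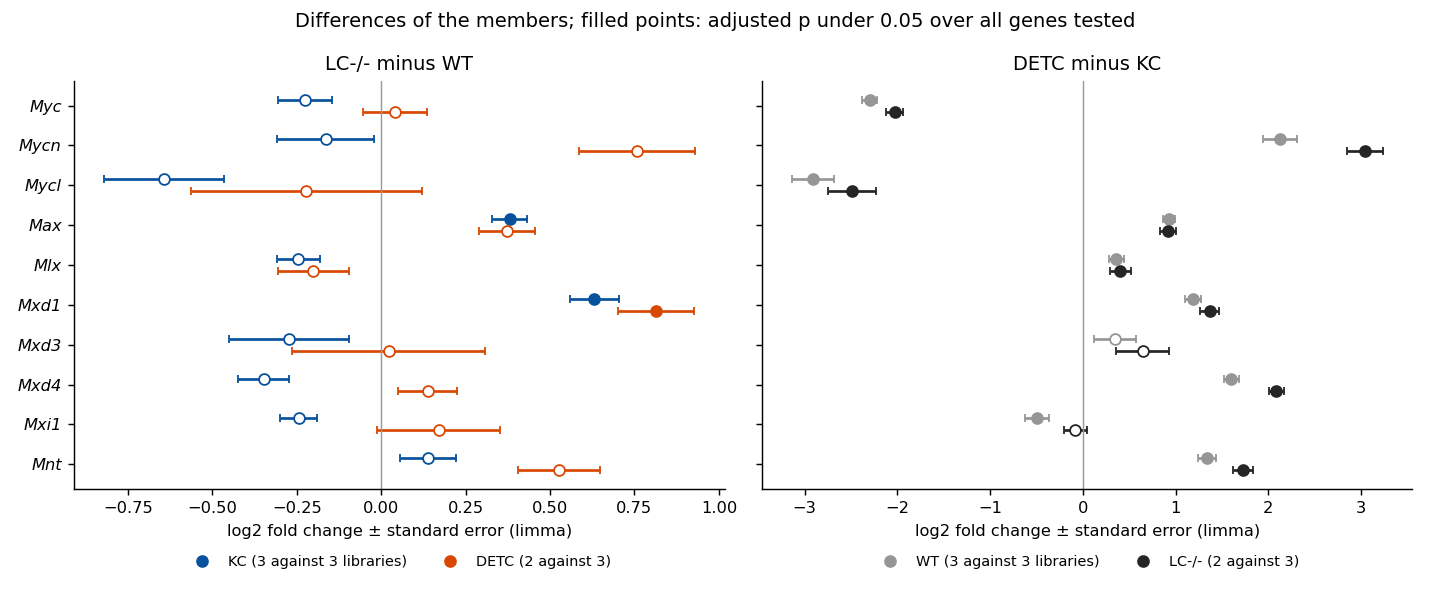
Log2 fold changes of the 10 members with their standard errors, for LC-/- minus WT (left) and DETC minus KC (right). Filled points passed an adjusted p of 0.05 over all genes tested. On the left Mxd1 lies at 0.63 in KCs and 0.81 in DETCs, and on the right Myc and Mycl lie below -2 in both genotypes, while Mycn, Mxd4, Mnt, Mxd1, Max and Mlx lie above 0.

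Between the populations the members differed by up to 3.04 on the log2 scale, and between genotypes by at most 0.81. In WT libraries Myc was 4.92-fold lower in DETCs than in KCs, at 1778 ± 110 against 8753 ± 697 normalized counts (SD, n = 3 each), and Mycl 7.52-fold lower, at 63.8 ± 19.5 against 474 ± 78.6. Mycn was 4.35-fold higher in DETCs, at 157 ± 26.5 against 35.2 ± 3.28. Of the repressors, Mxd4 was 3.03-fold, Mnt 2.53-fold and Mxd1 2.28-fold higher in DETCs, and Max was 1.90-fold higher.

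By limma over all genes, 6 members passed as higher in WT DETCs and 3 as lower, and Mxd3 did not pass. Over all genes 76.0% passed in this comparison, 41.0% as higher and 35.1% as lower, so 9 of 10 is near the background. The log2 differences in WT were -2.30 ± 0.082 (SE) for Myc (adjusted p = 8.45e-09, limma), -2.91 ± 0.23 for Mycl (adjusted p = 1.83e-06), 2.12 ± 0.18 for Mycn (adjusted p = 3.80e-06) and 1.60 ± 0.082 for Mxd4 (adjusted p = 8.95e-08). Mnt, Mxd1 and Max differed by 1.34 ± 0.098, 1.19 ± 0.089 and 0.92 ± 0.065, with adjusted p-values of 1.16e-06, 1.39e-06 and 8.65e-07 in limma. The smaller differences of 0.36 ± 0.081 for Mlx (adjusted p = 0.00275, limma) and -0.49 ± 0.13 for Mxi1 (adjusted p = 0.00696), also passed.

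LC-/- libraries, which share none with the WT comparison, gave the same direction for the 8 members that passed there. Myc was 4.08-fold lower in LC-/- DETCs than in LC-/- KCs (log2 difference -2.03 ± 0.096, adjusted p = 6.70e-06, limma) and Mycl 5.61-fold lower (-2.49 ± 0.26, adjusted p = 0.000214). Mycn was 8.24-fold higher (3.04 ± 0.19, adjusted p = 2.18e-05, limma), Mxd4 4.24-fold (2.08 ± 0.082, adjusted p = 3.31e-06), Mnt 3.31-fold (1.73 ± 0.11, adjusted p = 2.22e-05), Mxd1 2.58-fold (1.37 ± 0.10, adjusted p = 4.40e-05) and Max 1.89-fold (0.92 ± 0.088, adjusted p = 0.000143). Here 6 members passed as higher and 2 as lower, against 70.2% of all genes, 38.1% as higher and 32.1% as lower. Mlx passed at 0.40 ± 0.11 (adjusted p = 0.0169, limma) but not without L1 of the KCs (adjusted p = 0.0557) or L2 of the DETCs (adjusted p = 0.0644). Mxi1, lower in WT DETCs, had a log2 difference of -0.08 ± 0.13 (adjusted p = 0.588, limma) in LC-/- libraries and passed only without DETC library L3 (adjusted p = 0.0436). Quantile normalization moved the median of all genes by -0.32 in the WT and by -0.37 in the LC-/- comparison, and under it Mlx passed in neither and Mxd3 changed sign in WT.

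The Myc that DETC libraries held was close to what their keratinocyte share alone would give, if that share held for Myc. That share of the KC mean amounted to 81.9% to 86.8% of the Myc value in the WT DETC libraries and to 104% (L2) and 72.8% (L3) in the LC-/- ones. For Mycl it amounted to 94.5% to 179% in WT and 121% to 125% in LC-/- libraries. For the members that passed as higher in WT DETCs than in WT KCs it was 1.96% to 4.28% for Mycn, 3.84% to 6.58% for Mxd4, 5.51% to 7.53% for Mnt, 6.31% to 9.80% for Mxd1, 8.19% to 14.7% for Max and 12.6% to 19.7% for Mlx. For Mxd3 it was 9.56% to 19.3%. Mxi1 had a share of 15.7% to 32.4%. Amounts above the measured value, as 104% for Myc (L2) and up to 179% for Mycl, cannot be a part of it. The share thus does not hold exactly for each gene. How much of the Myc and Mycl reads in DETC libraries came from keratinocytes was not tested.

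**Figure D3:**
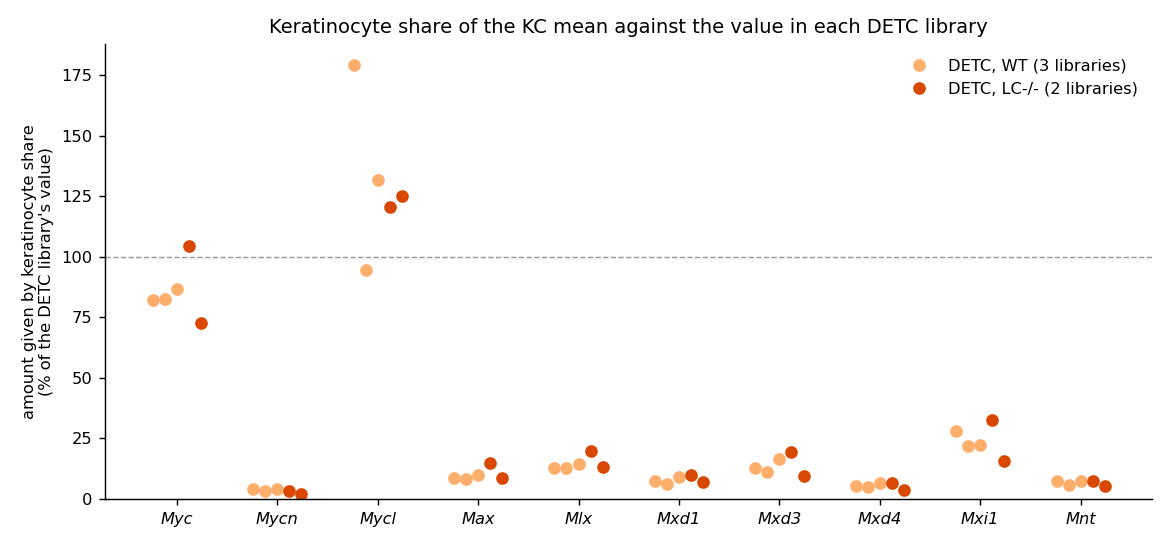
Amount of each member that the keratinocyte share of a DETC library would give, in percent of the value measured in that library (linear axis from 0). Points are the 3 WT and 2 LC-/- DETC libraries, and the dashed line marks 100%. Myc lies at 72.8% to 104%, Mycl at 94.5% to 179%, and Mycn, Mxd4, Mnt and Mxd1 all lie under 10%.

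Levels of different genes were compared as reads per kilobase of exon, counting all annotated exons, and scaled to the reads on genes in the library. On this scale Myc was the highest member in WT KCs at 236 ± 18.0 (SD, n = 3), far above Mxd4 at 16.6 ± 1.42, Max at 15.8 ± 0.339, Mnt at 13.5 ± 1.39, Mxd1 at 12.2 ± 0.853 and Mlx at 11.9 ± 0.723. Mycl at 8.58 ± 1.31 and Mxi1 at 8.31 ± 0.297 followed, and Mycn at 0.783 ± 0.0922 and Mxd3 at 0.723 ± 0.0468 came last. Ranges over libraries overlapped for Mxd4 and Max, Mnt and Mxd1, Mxd1 and Mlx, Mycl and Mxi1, and Mycn and Mxd3. These neighbours do not differ beyond their spread. The spread over libraries leaves out any error of the exon lengths, so the order of the other neighbours was not tested either. In LC-/- KCs the order began with Myc at 184 ± 14.2, Max at 18.9 ± 1.49 and Mxd1 at 17.2 ± 1.60. Mxd4 had the fifth place at 11.9 ± 0.475, after Mnt. The ranges of Max and Mxd1 overlapped, as did those of Mnt and Mxd4.

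In WT DETCs, Mxd4 at 43.1 ± 2.33 and Myc at 41.0 ± 2.09 such scaled reads per kilobase led with overlapping ranges. Mnt at 29.3 ± 2.51, Max at 25.8 ± 0.519 and Mxd1 at 23.8 ± 2.50 followed, and the ranges of Max and Mxd1 overlapped. Mlx at 13.1 ± 0.528, Mxi1 at 5.09 ± 0.784, Mycn at 2.99 ± 0.410, Mycl at 0.984 ± 0.269 and Mxd3 at 0.799 ± 0.0899 came after. In LC-/- DETCs, Mxd4 (41.2 ± 1.71), Myc (36.8 ± 3.09), Mnt (36.7 ± 4.35) and Mxd1 (36.4 ± 3.53; SD, n = 2 each) stood close together, and the ranges of Myc, Mnt and Mxd1 overlapped.

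Ratios within a library do not depend on the size factor. On the per-length scale the ratio of Mxd1 to Myc was 0.0498, 0.0532 and 0.0520 in WT KCs and 0.0947, 0.0952 and 0.0911 in LC-/- KCs. The WT DETC libraries gave 0.582, 0.673 and 0.494, and the LC-/- ones 0.997 and 0.979, so that Mxd1 and Myc had about the same number of reads per kilobase in LC-/- DETCs. The 5 repressing members summed, over the 3 Myc genes summed, gave 0.210 ± 0.00805 in WT KCs and 0.262 ± 0.00674 in LC-/- KCs (SD, n = 3 each), and 2.27 ± 0.213 (SD, n = 3) in WT DETCs and 2.87 ± 0.0985 (SD, n = 2) in LC-/- DETCs. The summed repressors themselves were 51.3 ± 2.79 scaled reads per kilobase in WT KCs and 49.6 ± 3.42 in LC-/- KCs, where Mxd1 made up 23.7% ± 0.384 and 34.7% ± 0.831 of the sum and Mxd4 32.4% ± 1.69 and 24.0% ± 1.10. These ratios hold Mxd1 and so the choice of the members, and they are given with no test. The DETC ratios also hold the keratinocyte share of Myc.

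**Figure D4:**
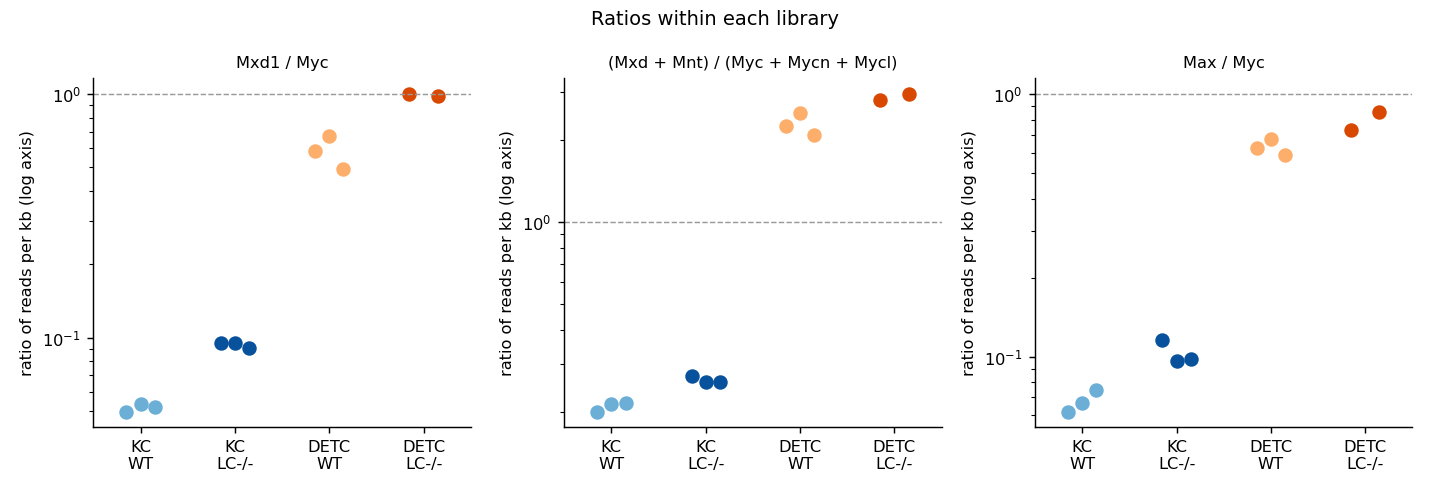
Ratios within each library of Mxd1 to Myc, of the summed Mxd1, Mxd3, Mxd4, Mxi1 and Mnt to the summed Myc, Mycn and Mycl, and of Max to Myc, from reads per kilobase (log axes). Each point is a library and the dashed line marks a ratio of 1. Mxd1 to Myc lies at 0.0498 to 0.0532 in WT KCs and at 0.979 to 0.997 in LC-/- DETCs.

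The genes most like Mxd1 over the 11 libraries, after the mean of each population was subtracted, were Nop9 (Pearson r = 0.992), Klhdc3 (0.975), Gpat4 (0.971), Fbxo34 (0.968) and Elk4 (0.965), out of 9672 genes compared. All of these points share libraries and size factors. Genotype differences were not subtracted and enter each correlation, among them that of Mxd1, which led to the choice of the members. The correlations are a description, and joint control of these genes was not tested. Nop9, a nucleolar protein of small-subunit assembly, had means of 331 and 457 normalized counts in WT and LC-/- KCs and 720 and 1096 in WT and LC-/- DETCs. Elk4, a serum response factor partner, had 2243 and 2640 in KCs and 5620 and 7752 in DETCs. Among the members, Mxd1 went most with Max (r = 0.921) and Mnt (0.842) and most against Mlx (-0.895). Myc was most like Iars2 (0.963), the mitochondrial isoleucyl-tRNA synthetase, and then Nudt18 (0.933), Pex19 (0.922), Paqr3 (0.916) and Rnpepl1 (0.913), and among the members it went with Mycl (0.777) and Mxd4 (0.752).

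Genes that Myc and Max are known to act on were followed in lists written by hand with earlier results of these data known, so their counts are not independent evidence. Of 26 ribosome biogenesis genes, 14 were higher in LC-/- KCs by limma over all genes and 0 lower, where 5.37% of all genes passed as higher. The median log2 fold change was 0.40 over the list and -0.01 over all genes, and 25 of the 26 lay above 0. Rcl1, a factor of 18S rRNA processing, had 470, 448 and 509 normalized counts in WT and 723, 791 and 830 in LC-/- KCs (log2 fold change 0.71 ± 0.075, SE; adjusted p = 0.0194, limma). Rrp12, needed for export of both subunits, rose by 0.67 ± 0.12 (adjusted p = 0.0404), Wdr43, a factor of small-subunit assembly, by 0.65 ± 0.099 (adjusted p = 0.0302) and Nop2, a 28S rRNA methyltransferase, by 0.57 ± 0.065 (adjusted p = 0.0205). Nop2, whose E-box window is shown with those of the members, had 535, 521 and 601 normalized counts in WT and 826, 843 and 791 in LC-/- KCs, without overlap. The count of 14 fell to 7 without W3 and 5 without L2 and to 0 without W1, W2, L1 or L3, while 24 or 25 of the 26 stayed above 0. It was 6 after quantile normalization and 7 without the mean-variance trend. Of all genes tested, 775 passed as higher in KCs with all libraries, but 5 to 10 in each of the fits that gave 0 here. These counts of 0 therefore do not bear on this list alone.

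In DETCs 2 of the 26 ribosome biogenesis genes passed as higher, Wdr43 (0.70 ± 0.10; adjusted p = 0.0182, limma) and Nop58 (0.61 ± 0.12; adjusted p = 0.0340), a core protein of box C/D particles. Over all genes 3.13% passed as higher. The median log2 fold change was 0.24 over the list and 0.02 over all genes. After subtraction of the keratinocyte share the list median was -0.12, with 0 passing, near the median of -0.097 over all genes in that fit. Without L2, the DETC library with the highest share, the list median was 0.12, against 0.014 over all genes. Without L3 the list median was 0.37, against 0.034 over all genes. In the fit without W1 1 gene of the list passed, and without W2 or W3 0 passed. Between populations, 19 of the 26 were lower in WT DETCs than in WT KCs and 1 higher, led by Rrs1 (-1.85 ± 0.089; adjusted p = 5.98e-08, limma), Gnl3 (-1.81 ± 0.093; adjusted p = 9.12e-08), Tsr1 (-1.71 ± 0.078; adjusted p = 4.04e-08) and Nop16 (-1.71 ± 0.17; adjusted p = 1.31e-05). The median was -0.68, against 0.07 over all genes, of which 41.0% were called higher and 35.1% lower.

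**Figure D5:**
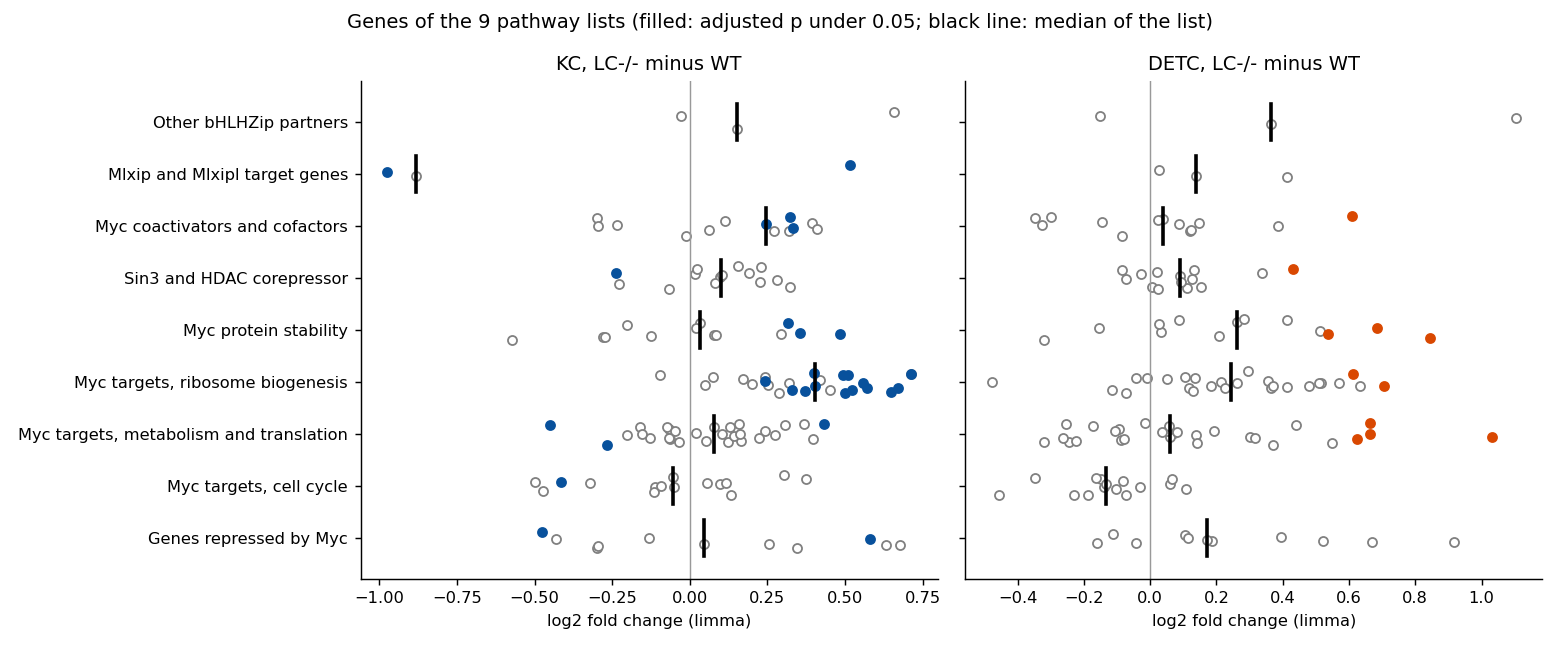
Log2 fold changes (LC-/- minus WT) of the genes in 9 lists around the network, in KCs (left) and DETCs (right). Each point is a gene, filled where it passed an adjusted p of 0.05 over all genes tested, and the black line is the median of the list. In KCs 14 of 26 ribosome biogenesis genes are filled, with a median of 0.40, and the cell cycle list has a median of -0.05.

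Of all genes, 7.23% passed between genotypes in KCs and 3.56% in DETCs. The 9 lists held 3, 3, 13, 14, 13, 26, 29, 15 and 11 tested genes. Over the 9 lists together 29 genes passed in KCs and 11 in DETCs. In KCs this count was 17 without L2, 8 without W3, 1 without L3 and 0 without W1, W2 or L1, and in DETCs 11 without W1, 10 without L3, 2 without W2, 1 without W3 and 0 without L2. These counts bear on each call of a list gene given here. Calls over all genes fell in the same KC fits. They went from 775 higher and 267 lower to 5 to 10 higher and 0 to 9 lower without W1, W2, L1 or L3.

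Of 29 Myc targets in metabolism and translation, 1 was higher and 2 lower in LC-/- KCs, where 5.37% of all genes were higher and 1.85% lower. Odc1, the first enzyme of polyamine synthesis, rose by 0.43 ± 0.085 (adjusted p = 0.0475, limma), and the glycolytic Eno1 and the mitochondrial serine enzyme Shmt2 fell, at -0.45 ± 0.065 (adjusted p = 0.0275) and -0.27 ± 0.045 (adjusted p = 0.0381). In DETCs 4 passed as higher and 0 as lower, against 3.13% and 0.430% of all genes. Hk2, the inducible hexokinase, had 11707, 18421 and 14948 normalized counts in WT and 30634 and 29766 in LC-/- DETCs (1.03 ± 0.18; adjusted p = 0.0291, limma). The amino acid transporter pair Slc3a2 and Slc7a5 rose by 0.66 ± 0.11 (adjusted p = 0.0242) and 0.66 ± 0.14 (adjusted p = 0.0480), and Impdh2, of guanine nucleotide synthesis, by 0.63 ± 0.10 (adjusted p = 0.0247). With the keratinocyte share subtracted, or with W3 left out, 0 of these 29 passed, and without W2 1 passed. Over all genes 13 passed as higher with the share subtracted, 42 without W3 and 63 without W2. Between WT populations 10 of the 29 were higher in DETCs, among them Hk2 (2.46 ± 0.15; adjusted p = 2.83e-07, limma) and Impdh2 (1.94 ± 0.077; adjusted p = 1.61e-08), and 13 lower, among them Shmt1 (-1.94 ± 0.082; adjusted p = 2.29e-08). Over all genes 41.0% were higher and 35.1% lower in this comparison, and the 10 and 13 of 29 are near that background in total.

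Of 15 cell cycle targets, Cdc25a, a phosphatase that opens the cycle, was lower in LC-/- KCs (-0.42 ± 0.071; adjusted p = 0.0381, limma) and the other 14 did not pass. In DETCs 0 of the 15 passed in limma, edgeR or DESeq2, with 1 at an unadjusted p under 0.05 in limma, and the median of the list was -0.13. In WT, 7 were higher in DETCs than in KCs and 4 lower, with Ccnd2 (1.74 ± 0.10; adjusted p = 1.94e-07) and Tk1 (1.33 ± 0.14; adjusted p = 1.77e-05) higher and Cdca7, at 101 ± 15.9 against 407 ± 40.5 normalized counts (SD, n = 3 each; adjusted p = 9.35e-07 in limma), lower. Of 11 genes that Myc is known to repress, Ndrg1, a stress and differentiation gene, rose in LC-/- KCs (0.58 ± 0.079; adjusted p = 0.0251, limma) and Gas1, a growth arrest gene, fell (-0.48 ± 0.085; adjusted p = 0.0410). In DETCs 0 of these 11 passed in limma and edgeR and 2 in DESeq2, and 4 had an unadjusted p under 0.05 in limma. In WT, 4 of the 11 were higher in DETCs and 5 lower, with Cebpa at -2.83 ± 0.16 (adjusted p = 2.01e-07) and Thbs1 at -2.41 ± 0.20 (adjusted p = 2.42e-06). The calls between WT populations, 11 of the 15 cell cycle genes and 9 of the 11 repressed genes, are near the 76.0% over all genes.

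Among genes whose proteins work with the dimers, 3 of 13 Myc cofactors were higher in LC-/- KCs and 0 lower. Over all genes 5.37% were higher and 1.85% lower. Among the 3 cofactors were the acetyltransferase Kat5 (0.33 ± 0.043; adjusted p = 0.0248, limma) and the elongation kinase Cdk9 (0.32 ± 0.043; adjusted p = 0.0251). In DETCs Ccnt1, the cyclin of Cdk9, was higher (0.61 ± 0.11; adjusted p = 0.0328, limma), and it did not pass with the keratinocyte share subtracted (log2 fold change 0.60, adjusted p = 0.164). Over all genes 13 passed as higher and 6 as lower after that subtraction. Of 14 genes of the Sin3 and HDAC corepressor, Hdac2 was lower in LC-/- KCs (-0.24 ± 0.043; adjusted p = 0.0427, limma) and Arid4b higher in LC-/- DETCs (0.43 ± 0.085; adjusted p = 0.0374, and 0.218 with the keratinocyte share subtracted), and Sin3a, Sin3b and the other members of this list did not pass in either population. edgeR and DESeq2 passed 0 of the 14 as lower and 1 as higher in KCs. Between WT populations 8 of the 14 were higher in DETCs and 2 lower, with Sap18 at 3.40 ± 0.12 (adjusted p = 5.93e-09, limma), Sap30 at 1.79 ± 0.11 (adjusted p = 4.31e-07) and Hdac1 at 1.08 ± 0.071 (adjusted p = 5.30e-07). These 10 of 14 are near the 76.0% over all genes.

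Of 13 genes that act on the stability of the Myc protein, 3 were higher in each population and 0 lower by limma, where 5.37% of all genes were higher in KCs and 3.13% in DETCs. In KCs edgeR and DESeq2 each passed 1 of the 13 as lower, and in DETCs DESeq2 did. Usp36, a nucleolar deubiquitinase that spares Myc from degradation, passed in both. It had 855, 945 and 960 normalized counts in WT KCs and 1267, 1369 and 1221 in LC-/- KCs (0.48 ± 0.067; adjusted p = 0.0255, limma), and 4962, 4723 and 4959 in WT DETCs and 8927 and 8620 in LC-/- DETCs (0.85 ± 0.084; adjusted p = 0.00832). The groups of Usp36 did not overlap in either population. Usp36 in DETCs also passed with the keratinocyte share subtracted (log2 fold change 0.85, adjusted p = 0.0496, limma). It did not pass without L2 (adjusted p = 0.0505), and in KCs it passed only without L2 among the 6 fits that left out a library (adjusted p = 0.0468). In KCs the ubiquitin ligase Huwe1 (0.35 ± 0.048; adjusted p = 0.0251, limma) and Usp28 (0.32 ± 0.062; adjusted p = 0.0470) were higher too, and in DETCs the deubiquitinases Usp37 (0.68 ± 0.087; adjusted p = 0.0146) and Usp22 (0.54 ± 0.11; adjusted p = 0.0399). With the keratinocyte share subtracted Usp37 had an adjusted p of 0.0661 and Usp22 one of 0.141 in limma. In that fit 13 of all genes passed as higher.

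The partners Mlxip and Mlxipl of the Mlx branch, and Mga, which is not of this branch, passed in neither genotype comparison in limma or edgeR. By limma 1 of the 3 was at an unadjusted p under 0.05 in each, and 1 passed in DETCs by DESeq2. In WT, Mlxip was lower in DETCs than in KCs (-0.46 ± 0.061; adjusted p = 9.11e-05, limma). Of the 3 tested targets of this branch, the arrestin-like Arrdc3 had 1711, 1632 and 1814 normalized counts in WT KCs and 921, 902 and 801 in LC-/- KCs, a log2 fold change of -0.98 ± 0.071 (SE; adjusted p = 0.0169, limma). Arrdc4 went the other way in the same libraries, with 964, 804 and 916 in WT and 1322, 1224 and 1284 in LC-/- KCs (0.52 ± 0.077; adjusted p = 0.0293, limma). The third target, Txnip, an inhibitor of thioredoxin and of glucose uptake, had 6843, 5130 and 7911 in WT and 3709, 4286 and 2786 in LC-/- KCs, without overlap. Its log2 fold change of -0.88 ± 0.23 did not pass (adjusted p = 0.0823, limma), while edgeR and DESeq2 passed 2 of the 3 as lower and 1 as higher. Txnip was named for KCs after its values were seen. The call of Arrdc3 in KCs was lost without W1 (adjusted p = 0.0667, limma), W2 (0.0657) or L1 (0.0795). In DETCs 0 of the 3 passed in limma, edgeR or DESeq2, with 1 at an unadjusted p under 0.05 in limma, and Arrdc3 had 2431, 2132 and 2409 in WT and 2547 and 2557 in LC-/- libraries.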

How the data were processed

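The authors aligned the reads to GRCm38 and counted them per gene. They scaled each library by a size factor of DESeq2 from the median-of-ratios method. It is the median over genes of the library's count divided by the gene's geometric mean over all libraries. The deposited table is thus a signal, normalized counts without a log transformation. Reads were recovered from the smallest step of each library, and all values came out whole within 0.01 reads, with 13491075 to 19750440 reads per library. Strand settings of the counting are not given in the sources used here.

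Genes with a CPM above 1 in at least 2 of the 11 libraries were tested (14419 of 52550) on log2 of the normalized count plus a pseudocount of 1. The test was limma 3.58.1 under R 4.3.3, with a mean-variance trend and Benjamini-Hochberg adjustment. Genotypes were compared within a population, populations within a genotype, and the difference by an interaction term over all libraries. Fold changes are on the log2(value + 1) scale and understate the change of low genes. A gene is called higher or lower, or said to have passed, at an adjusted p under 0.05. edgeR 4.0.16 and DESeq2 1.42.0 were run on the recovered reads. Further alternatives changed the pseudocount (0.5 or 8), the filter (a mean of at least 10, or none), the normalization (quantile, or size factors within each fit), the trend (none) or the samples (1 fit over all libraries, a replicate block, omission of each library). The keratinocyte share, the median over 24 keratinocyte markers of the DETC value over the KC mean of the same genotype, was also subtracted. In that fit 13 of all genes tested passed as higher and 6 as lower, so a call lost there says little about a single gene. The scripts were tested on simulated counts.

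Lengths and positions came from GENCODE M21 (GRCm38), and promoter windows from RefSeq (GRCm38.p6). For levels between genes, reads per kilobase were divided by the reads on genes of the library and put on a common scale. The members, gene lists and tests were chosen with earlier results of these data known. Named were all members, of each list at most 4 called genes per comparison by the size of the change, and the 5 genes most like Mxd1 and Myc. A gene that this rule selects is not reported here.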

Additional observations from a re-analysis of the deposited data

Results flagged for a closer look

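Mxd4 differed in direction between the populations. Its LC-/- libraries were all below the WT libraries in KCs and all above them in DETCs, and the DETC change exceeded the KC change by 0.49 ± 0.12 (SE) on the log2 scale. It did not pass in limma and passed in DESeq2, and no p-value is given because it draws on the genotype values that led to the choice of the members. After quantile normalization the DETC change of Mxd4 turned to -0.07.

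Arrdc3, a target of the Mlx branch, differed between the populations by an interaction of 1.11 on the log2 scale (adjusted p = 0.00257, limma). It was lower in all 3 LC-/- KC libraries and higher in both LC-/- DETC libraries than in every WT library of the same population. The change in DETCs did not pass and turned to -0.012 after quantile normalization. Arrdc3 was flagged because its interaction passed, from lists written with earlier results known, so this p-value is not independent evidence.

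Groups here hold 2 or 3 libraries, too few to look for single outlying libraries.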

How the results depend on the processing

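Of 1311 fold changes under alternatives that kept all libraries, 1213 kept their direction and side of the threshold, 64 were no longer past it, 23 were newly past it and 11 changed direction. Among members, KCs had 2 calls, and edgeR, DESeq2 and no filter each gave 4, with 0 to 1 when a library was left out. DETCs had 1 call, and DESeq2 and the fit over all 11 libraries each gave 4, eBayes without trend and subtraction of the keratinocyte share 0, and omission of a library 0 to 1. The interaction gave 0 calls and DESeq2 1. Over the pathway lists, 29 calls in KCs became 44 (edgeR), 45 (DESeq2), 15 (quantile normalization), 16 (no trend) and 0 to 17 with a library left out. In DETCs, 11 became 25 (DESeq2), 25 (fit over all 11 libraries), 4 (quantile normalization), 0 (no trend), 1 (share subtracted) and 0 to 11 with a library left out. Calls over all genes in DETCs also fell, to 0 without the trend and to 13 higher and 6 lower with the share subtracted. The causes were not tested.

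Quantile normalization changed the split of all calls from 5906 higher and 5059 lower to 4693 and 6658 between WT populations, and from 452 and 62 to 178 and 85 between genotypes in DETCs. Direction changed for Myc in DETCs (edgeR -0.000822, quantile -0.086, share subtracted -3.73, omission -0.038 to 0.12), Mxd3 in DETCs (edgeR -0.023, DESeq2 -0.00685, size factors within the fit -0.00478, omission -0.14 to 0.18), Mxd4 in DETCs (quantile -0.066), Mxd3 between WT populations (quantile -0.19), Mlx in the interaction (quantile -0.016, omission -0.00342 to 0.092), Arrdc4 (share subtracted -1.18) and Arrdc3 (quantile -0.012) in DETCs. Omission of a library alone turned Mycl (-0.58 to 0.14), Mxi1 (-0.013 to 0.35) and E2f2 (-0.79 to 0.095) in DETCs, Mxi1 between LC-/- populations (-0.26 to 0.10) and Max in the interaction (-0.051 to 0.036). None of these values had been called in the comparison named.

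The number in the titles was used as a replicate block. It gave 9 members between WT populations (9 without it), 7 between LC-/- populations (8 without it, the lost one being Mlx) and 0 in the interaction (0 without it), and 93 pathway genes between WT populations (95 without it). Deviations of libraries with the same number correlated at -0.025 (W1), 0.113 (W2), 0.163 (W3), 0.175 (L2) and 0.147 (L3) over 11289 genes, that is over 0.1 for 4 of the 5 numbers and not for W1. Genes with few reads, as Mxd3 with 16 to 41 per library, limit what these libraries can show. So do DETC values that the keratinocyte share nearly equals or exceeds, as Myc and Mycl.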
